A study of Mus musculus with 4 samples.

Results

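The genes described here are 10 members of the FHL, PDZ-LIM and cysteine-rich protein families, namely *Fhl1*, *Fhl2*, *Fhl3*, *Pdlim1*, *Pdlim2*, *Pdlim5*, *Pdlim7*, *Csrp1*, *Csrp2* and *Crip1*. They were found by symbol among the 56748 gene IDs counted, and all 10 had reads and were tested. The comparison asks whether the fall of *Fhl1* on loss of *Hnrnpl* was shared or offset by its relatives. RNA strands were read directly on a nanopore, so that 1 read stands for 1 RNA strand and the counts are not scaled by length. The cells were C2C12, an established mouse myoblast line of wild-type genotype. Of 4 libraries, 2 came from cells with a scrambled shRNA and 2 from cells with a cocktail of 3 shRNAs against *Hnrnpl*, an RNA-binding protein that acts on splicing. In both groups the shRNA plasmids carried eGFP and the cells were stable cells selected with puromycin. Each group was 1 selected line and its replicates were passages, so that line and shRNA cannot be told apart and p-values measure the spread between passages. Batches 1 and 2 each held 1 scrambled and 1 knockdown library.

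The LIM domain is a pair of zinc fingers that binds other proteins. FHL proteins consist of LIM domains and move between adhesions, actin and the nucleus, where they act as cofactors of transcription. FHL1 is abundant in skeletal muscle, its short isoform KyoT2 binds RBP-J of the Notch pathway, and mutations in the human gene cause myopathies. PDZ-LIM proteins join a PDZ domain, which binds α-actinin, to LIM domains, and so tie partners to actin fibers and the Z-disc. CSRP proteins carry LIM domains that bind α-actinin and zyxin, and CRIP1 is a small protein with a single LIM domain.

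Promoters are shown for *Fhl1* and *Fhl2*, because these were the listed genes whose promoters held a CArG box, the site of serum response factor, and because their reads moved differently. The RefSeq promoter table (GRCm38.p6) held 12 promoters of 8 of the 10 genes, each of 300 bases (250 before and 50 after a start site). *Pdlim2* and *Csrp2* had no entry. A CArG box was found in 3 of these 12 promoters, in 1 of the 2 of *Fhl1* and in both of *Fhl2*, and in 1.63% of all 32851 promoters in the table (1.31% of the 8473 of tested genes). The sequences below run 5′ to 3′ with the CArG box in capitals and matched GRCm39 once each. The *Fhl1* promoter lies at chrX:55824793-55825092 on the plus strand, and its box starts 102 bases before the start site. The first *Fhl2* promoter lies at chr1:43203072-43203371 and the second at chr1:43235872-43236171, both on the minus strand, with boxes 31 and 96 bases before their start sites.
Fhl1: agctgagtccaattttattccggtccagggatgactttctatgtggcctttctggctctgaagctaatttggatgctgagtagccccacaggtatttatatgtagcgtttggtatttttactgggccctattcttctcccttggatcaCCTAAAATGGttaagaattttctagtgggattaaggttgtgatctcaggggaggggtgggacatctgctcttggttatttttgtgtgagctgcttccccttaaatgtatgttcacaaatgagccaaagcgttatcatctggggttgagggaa
Fhl2, first: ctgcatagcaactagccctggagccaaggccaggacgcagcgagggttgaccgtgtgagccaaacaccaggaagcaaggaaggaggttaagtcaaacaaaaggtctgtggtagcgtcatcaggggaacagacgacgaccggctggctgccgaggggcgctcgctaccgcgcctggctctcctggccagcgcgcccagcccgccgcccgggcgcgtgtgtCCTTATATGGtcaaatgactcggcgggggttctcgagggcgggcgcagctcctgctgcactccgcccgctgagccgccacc
Fhl2, second: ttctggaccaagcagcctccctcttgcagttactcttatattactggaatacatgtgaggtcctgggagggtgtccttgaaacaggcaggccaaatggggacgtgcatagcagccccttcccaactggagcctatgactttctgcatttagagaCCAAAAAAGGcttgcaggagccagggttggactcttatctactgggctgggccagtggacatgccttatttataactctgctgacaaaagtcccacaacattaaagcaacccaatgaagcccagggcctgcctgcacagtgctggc

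The remaining 9 promoters of the listed genes had no match to the CArG box. The letters CATTCC, the site of TEAD factors, were searched on both strands and were in 0 of the 12 promoters and in 14.7% of all promoters (11.3% of those of tested genes). The E-box letters CANNTG, which read the same on both strands, were in 8 of the 12, in 72.3% of all and in 61.2% of those of tested genes. The letters TTCCCAC, the site of RBP-J, were searched on both strands and were in 1 of the 12, a *Csrp1* promoter, and in 6.38% of all promoters (5.70% of those of tested genes). A match describes the letters only.

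The libraries held 1229424 to 1676911 reads counted to genes, which was 56.5% to 57.8% of all reads. Reads of low mapping quality made up 22.7% to 23.8%, and reads that fell on more than 1 gene 16.0% to 16.5%. Mitochondrially encoded genes took 5.73% and 5.42% of the counted reads in scrambled and more in knockdown, 7.30% and 6.70%. With these genes and *Rn18s* left out, *Fhl1*, *Csrp1* and *Pdlim1* were again the listed genes called. A gene was called when its adjusted p was under 0.05, its log2 fold change was beyond 0.5 in size and its mean normalized count was above 10. *Hnrnpl* had 358 and 656 reads in scrambled 1 and 2, against 242 and 258 in knockdown 1 and 2. It was lower in knockdown by a log2 fold change of -0.78 ± 0.18 (SE, n = 2 per group; edgeR quasi-likelihood test, adjusted p = 0.0112). The call was lost without scrambled 2 (-0.48, adjusted p = 0.194), without knockdown 1 (-0.62, 0.150) and in both DESeq2 parametric fits. Myoblast markers were present: 7 of 8 had reads, with a summed level of 659 and 803 CPM in scrambled and 461 and 377 CPM in knockdown. *Pax7* was at 0 and *Myod1* had 1 read in all. *Cdh15*, an adhesion protein of myoblasts, was lower (log2 fold change -2.55), as were the receptor subunit *Chrna1* (-1.53) and *Des*, which encodes desmin (-0.56), all called, where 3.22% of all genes were called lower. Of these 3, the DESeq2 parametric fits called 2. The other 2 markers tested did not pass: the myogenic factor *Myf5* was at -0.16 (adjusted p = 0.615) and the adhesion receptor *Vcam1* at 0.29 (adjusted p = 0.707). Of 9 markers of differentiated muscle, 7 were at 0 in every library, and the summed level was 19.5 and 13.1 CPM in scrambled and 6.55 and 14.6 CPM in knockdown. Of 12 markers of immune, endothelial, adipocyte and neural cells, 6 had reads. Without *Tubb3*, which fell from 150 and 149 reads to 20 and 18, the other 11 summed to 2.16 to 3.64 CPM. Whether the lower level of these 3 markers had a part in the changes below was not tested.

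The fall of *Fhl1* was shared by *Csrp1* and, less firmly, by *Pdlim1*, and no listed gene was called higher. By this rule *Fhl1*, *Csrp1* and *Pdlim1* were called lower in knockdown, 3 of 10, where 3.22% of the 8670 genes tested were called lower and 5.55% in either direction. The question was set by the known fall of *Fhl1*, and of the 9 others 2 were called lower. Of all genes 2.33% were called higher. The DESeq2 Wald test with local fit called the same 3 genes lower and 0 higher, against 1.74% and 0.94% of its genes. Both DESeq2 parametric fits called *Fhl1* and *Csrp1* lower but not *Pdlim1*, where 71 of 9074 and 70 of 10492 genes were called lower. At an unadjusted p under 0.05, which 21.8% of all genes passed, 5 listed genes were lower and 1, *Crip1*, was higher. In bulk RNA, fewer cells that express a gene and less of its RNA per cell cannot be told apart. The log2 fold change was below 0 for 8 of the 10, with a median of -0.40 (-0.38 without *Fhl1*), and for 50.1% of all genes, whose median was -0.00059. The median of the 10 was -0.52 without scrambled 1 and -0.25 without scrambled 2. For 6 genes both knockdown values were below both scrambled values, and for 2 both were above. Over all tested genes these shares were 26% and 26.4%.

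**Figure D1:**
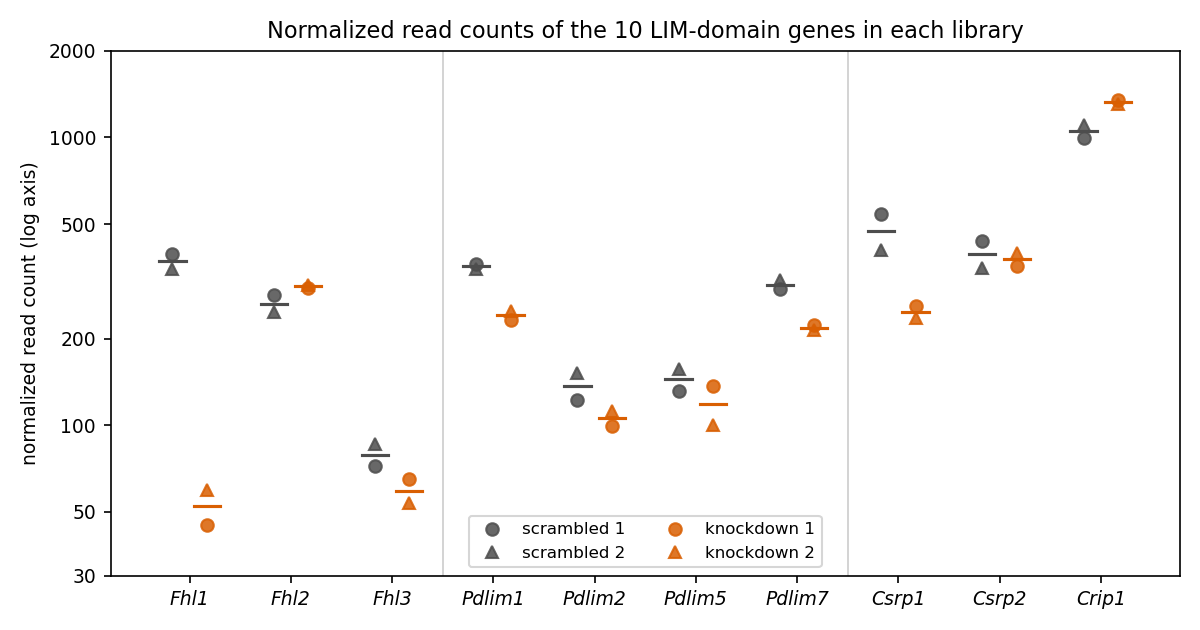
Normalized read count (log axis) of each of the 10 genes in each library, with circles for replicate 1, triangles for replicate 2 and a bar at the group mean. The knockdown points of *Fhl1* sit at 44.8 and 59.6, below every other listed gene's scrambled values, while the points of *Csrp2* and *Pdlim5* overlap between groups.

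*Fhl1* was the FHL gene whose fall was called (ENSMUSG00000023092.17, chrX:55777147-55838706, plus strand, GRCm39). It had 376 and 414 reads in scrambled 1 and 2, against 45 and 51 reads in knockdown 1 and 2, or normalized counts of 394, 348, 44.8 and 59.6. Both knockdown libraries were far below both scrambled libraries, with a gap of 289 normalized counts between the groups and means of 371 ± 32.1 and 52.2 ± 10.4 (SD, n = 2 each). On the log2 scale the fold change was -2.83 ± 0.18 (SE, adjusted p = 1.53e-08), a level 7.10-fold lower. Of the 8670 genes tested, 15 had a lower log2 fold change and 1 had a smaller p. The fall kept its call in all 16 alternatives, between -3.04 and -2.63.

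*Fhl2* did not pass the test, and its higher mean in knockdown was far below the loss of *Fhl1* (ENSMUSG00000008136.15, chr1:43162199-43236290, minus strand). FHL2 shares the domain plan of FHL1 and is known from heart muscle and as a partner of nuclear receptors. Its reads were 270 and 293 in scrambled against 302 and 262 in knockdown, and its normalized counts 283, 246, 301 and 306. The knockdown values lay just above the scrambled ones. Its log2 fold change was 0.20 ± 0.15 (adjusted p = 0.457) with a 95% interval of -0.11 to 0.51. The mean of *Fhl2* was 38.9 normalized counts higher in knockdown, which is 12.2% of the 319 that *Fhl1* lost. The median of all genes on chromosome 1 was itself 0.19, and with chromosome medians removed the value of *Fhl2* was 0.01.

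*Fhl3* had the fewest reads of these FHL genes in scrambled cells (ENSMUSG00000032643.13, chr4:124594172-124602419, plus strand). It encodes an FHL protein of skeletal muscle that binds actin. Its reads were 69 and 102 in scrambled against 65 and 46 in knockdown, and its normalized counts 72.2, 85.8, 64.8 and 53.8. Both knockdown values were below both scrambled values. A log2 fold change of -0.42 ± 0.21 did not pass (adjusted p = 0.251, 95% interval -0.85 to 0.02).

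As a family the FHL genes had 716 and 810 reads in scrambled against 416 and 360 in knockdown. These totals include *Fhl4*, which had 1, 1, 4 and 1 reads and was not tested, while *Fhl5* had none. The normalized total went from 716 ± 48.2 to 418 ± 4.44, which is 41.6% lower. The make-up turned over: *Fhl1* was 52.5% and 51.1% of the FHL reads in scrambled 1 and 2 (Wilson 95% intervals 48.9% to 56.1% and 47.7% to 54.5%). In knockdown it was 10.8% and 14.2% (8.18% to 14.2% and 10.9% to 18.1%). *Fhl2* went from 37.7% and 36.2% to 72.6% and 72.8% of a smaller total, and *Fhl3* from 9.64% and 12.6% to 15.6% and 12.8%. *Fhl1* was thus the leading FHL gene by reads in both scrambled libraries and *Fhl2* in both knockdown libraries. The intervals cover counting error only.

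**Figure D2:**
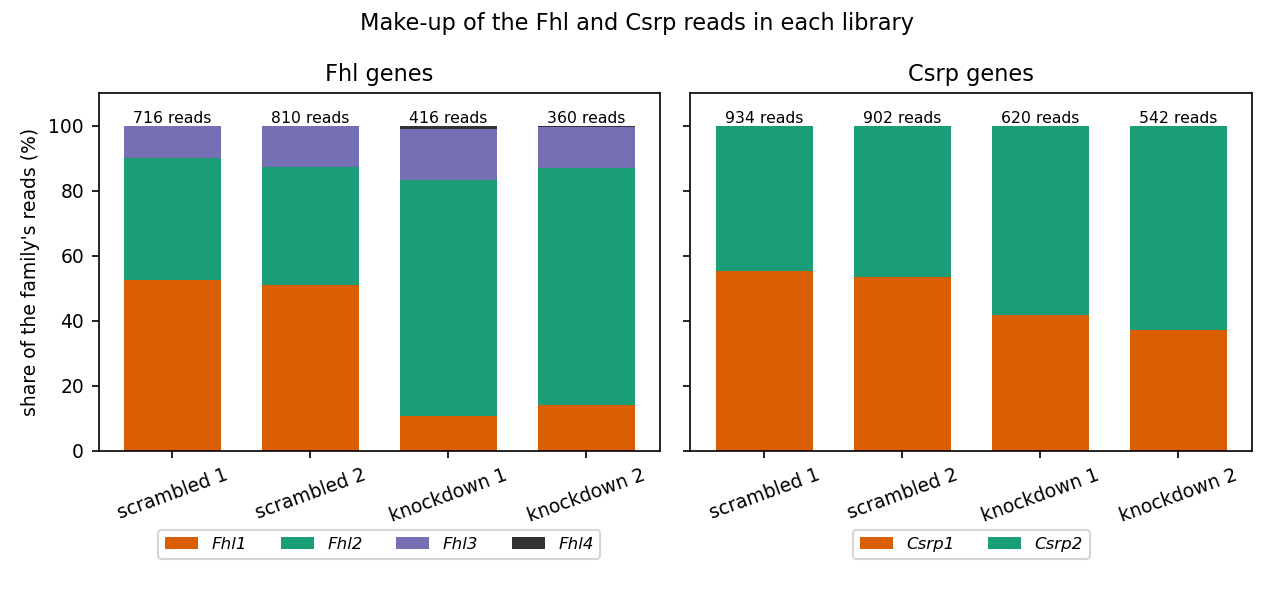
Share of the FHL reads (left, in %) and of the CSRP reads (right) taken by each gene in each library, with the family's reads above each bar. *Fhl1* goes from 52.5% and 51.1% in scrambled to 10.8% and 14.2% in knockdown, and *Csrp1* from 55.4% and 53.5% to 41.9% and 37.3%.

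Of the PDZ-LIM genes, none of the 4 listed rose, and *Pdlim1* was called lower (ENSMUSG00000055044.13, chr19:40209617-40260533, minus strand). It encodes CLP36, which binds α-actinin on stress fibers. Its reads were 346 and 416 in scrambled against 233 and 214 in knockdown, and its normalized counts 362, 350, 232 and 250. The groups were well apart, with means of 356 ± 8.69 and 241 ± 12.7, which is 32.3% lower. This was a log2 fold change of -0.56 ± 0.14 (adjusted p = 0.0253). The median of chromosome 19 was -0.23, and with chromosome medians removed the value was -0.33 and the call was lost (adjusted p = 0.274). It was also lost without scrambled 1 (-0.54), scrambled 2 (-0.60) or knockdown 1 (-0.51). The DESeq2 parametric fits lost it too (-0.57, adjusted p = 0.216 by the Wald test and 0.246 by the likelihood ratio test).

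*Pdlim7* had a change close to that of *Pdlim1* and just missed the call (ENSMUSG00000021493.16, chr13:55643608-55662151, minus strand). It encodes Enigma, which binds receptors and tropomyosin. Its reads were 283 and 379 in scrambled against 223 and 183 in knockdown, and its normalized counts 296, 319, 222 and 214. Both knockdown values were below both scrambled values, by 29.1% in the means. Its log2 fold change was -0.497 ± 0.15 (adjusted p = 0.0501), which missed both the p and the fold threshold. With no filter on low counts (-0.499, adjusted p = 0.0464) and with the robust test (-0.497, adjusted p = 0.0401) only the fold threshold was missed. On chromosome 13, whose median was 0.23, the direction of the shift was the opposite, and with chromosome medians removed *Pdlim7* was called (-0.72, adjusted p = 0.00638).

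*Pdlim2* and *Pdlim5* did not pass. *Pdlim2* (ENSMUSG00000022090.11, chr14:70399116-70415130, minus strand), which encodes a ubiquitin ligase for nuclear factors, had normalized counts of 122 and 151 in scrambled against 99.6 and 112 in knockdown. Its log2 fold change was -0.38 ± 0.17 (adjusted p = 0.208), beside a chromosome 14 median of -0.36, and -0.02 with chromosome medians removed. *Pdlim5* (ENSMUSG00000028273.16, chr3:141945345-142101830, minus strand) encodes ENH, which tethers protein kinase C to the Z-disc. Its normalized counts were 132 and 156 in scrambled against 136 and 101 in knockdown, and these overlapped (-0.28 ± 0.18, adjusted p = 0.387, 95% interval -0.66 to 0.10). The value was -0.53 without knockdown 1, -0.09 without knockdown 2 and -0.38 with chromosome medians removed, and it did not pass in any of these. The 4 listed PDZ-LIM genes together went from 945 ± 45.1 to 684 ± 9.71 normalized counts, 27.7% lower.

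Among the cysteine-rich proteins, *Csrp1* fell and *Csrp2* did not pass the test. *Csrp1* (ENSMUSG00000026421.15, chr1:135647492-135679976, plus strand), which encodes a partner of zyxin and α-actinin in smooth muscle and other cells, had 517 and 483 reads in scrambled against 260 and 202 in knockdown. Its normalized counts were 541, 406, 259 and 236, both knockdown values below both scrambled values despite the spread in scrambled. The log2 fold change was -0.93 ± 0.16 (adjusted p = 0.00139), 47.8% lower in the means. It was called in each of the 16 alternatives, between -1.13 and -0.71, and was -1.12 with chromosome medians removed.

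*Csrp2* (ENSMUSG00000020186.8, chr10:110755650-110776096, plus strand), the gene of a close homolog, had 417 and 419 reads in scrambled against 360 and 340 in knockdown. Its normalized counts were 437, 352, 359 and 397, so that the knockdown values lay between the scrambled ones. The log2 fold change was -0.06 ± 0.15 (adjusted p = 0.858), with a 95% interval of -0.37 to 0.25. With chromosome medians removed it was -0.30 (adjusted p = 0.363), beside a chromosome 10 median of 0.24. *Csrp1* made up 55.4% and 53.5% of the reads of this pair in scrambled and 41.9% and 37.3% in knockdown, and the pair together went from 868 ± 155 to 626 ± 11.1 normalized counts.

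*Crip1* had the most reads of the 10 genes and a higher mean in knockdown, but did not pass the test (ENSMUSG00000006360.12, chr12:113109936-113117503, plus strand). Its reads were 953 and 1317 in scrambled against 1357 and 1118 in knockdown, and its normalized counts 998, 1108, 1352 and 1307. Both knockdown values were above both scrambled values, by 26.3% in the means. The unadjusted p of its log2 fold change of 0.34 ± 0.14 was 0.0226, with a 95% interval of 0.05 to 0.62, and the adjusted p was 0.149. The difference of the means was 276 normalized counts, which is 86.7% of the number lost by *Fhl1*. As this difference did not pass, it does not show an offset of that loss. Its neighbor on the same strand, *Crip2* (chr12:113103721-113109129), had 852 and 1055 reads in scrambled against 1102 and 907 in knockdown. Its normalized means of 890 ± 3.19 and 1079 ± 26.8 also did not overlap (0.28 ± 0.13, adjusted p = 0.228). With *Crip1* added, the total of *Csrp1*, *Csrp2* and *Crip1* was 1921 ± 77.0 in scrambled and 1955 ± 20.9 in knockdown.

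**Figure D3:**
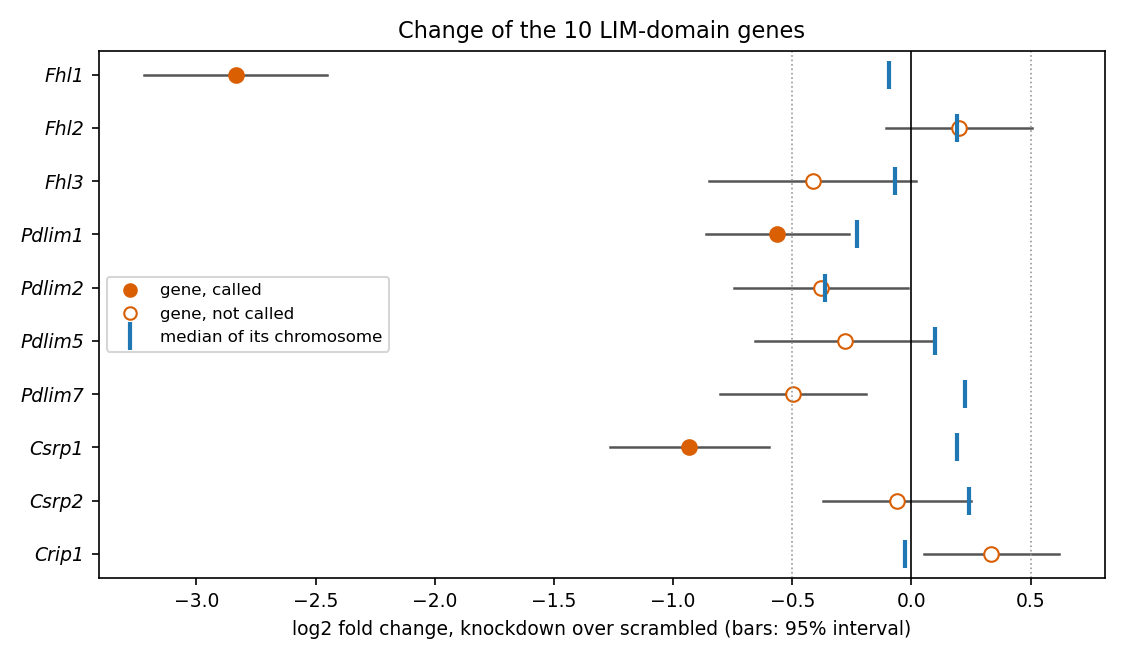
Log2 fold change of each gene, knockdown over scrambled, with 95% intervals, filled where called, beside the median log2 fold change of the gene's chromosome (blue tick) and dotted lines at 0.5 in size. *Fhl1* (-2.83) lies apart from the other 9, which range from -0.93 for *Csrp1* to 0.34 for *Crip1*.

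Of 8 further relatives in the same families, 4 had reads and 3 were tested. *Pdlim4*, which encodes RIL, a PDZ-LIM protein of stress fibers, had 111 and 170 reads in scrambled against 41 and 26 in knockdown. Its mean normalized count went from 130 ± 18.9 to 35.6 ± 7.40, a log2 fold change of -1.85 ± 0.21 (adjusted p = 3.10e-05), and it was the 1 relative called, where 3.22% of all genes were called lower. *Ldb3*, which encodes the Z-disc protein ZASP, had 16, 19, 14 and 2 reads and did not pass (-0.92 ± 0.51, adjusted p = 0.305). *Pdlim3*, *Csrp3*, *Crip3* and *Fhl5* had 0 reads in each library, which allows up to 1.79 to 2.44 CPM at 3 counts, so that they were not detectable at this depth.

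Among other LIM families, of 13 genes of zyxin, paxillin and PINCH type, which sit in adhesions, 11 were tested and 0 were called in edgeR, with a median of -0.12. *Zyx* had the smallest adjusted p of these (417, 587, 387 and 300 reads, log2 fold change -0.34, adjusted p = 0.165), and 3 were lower at an unadjusted p under 0.05, as were 997 of all 8670 genes. Of 19 actin-binding and kinase LIM genes, 9 were tested and 2 called, where 5.55% of all genes were, with a median of -0.15. *Mical2*, which oxidizes actin, was lower (156 and 198 reads against 97 and 76, -0.83 ± 0.17, adjusted p = 0.00499). *Ablim1*, an actin-binding LIM protein, was higher from a low level (9 and 9 reads against 28 and 18, 1.54 ± 0.40, adjusted p = 0.0274). It passed the filter on low counts only through its knockdown libraries, so its call is no support for a change of this list. Of 8 nuclear LIM genes, 2 were tested and 0 were called, nor was either under an unadjusted p of 0.05 (*Ldb1*, the LIM cofactor, -0.24, adjusted p = 0.672). *Ablim1* was called in none of the 4 DESeq2 configurations and *Mical2* in neither parametric fit.

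Of 15 genes of binding partners, 9 were tested and 0 were called, where 5.55% of all genes were, with 2 at an unadjusted p under 0.05, where 21.8% of all genes were. DESeq2 also called 0 of these, of the adhesion genes and of the nuclear genes. *Actn1*, the α-actinin that PDZ-LIM and CSRP proteins bind, had 406 and 541 reads in scrambled against 354 and 288 in knockdown (-0.35 ± 0.14, adjusted p = 0.140). *Rbpj*, the partner of the KyoT2 isoform, had 56 and 64 reads in scrambled against 75 and 74 in knockdown (0.52 ± 0.20, adjusted p = 0.141).

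By distance over the 4 libraries of the log2 normalized count (with 0.5 added, centered per gene), the 5 genes of 8499 most like *Fhl1* were *Sulf2*, *Tubb3*, *Gpx3*, *Tnc* and *Htr1b*, at distances of 0.264, 0.269, 0.498, 0.628 and 0.634. Their log2 fold changes were -3.11, -2.77, -2.61, -2.21 and -2.46. No listed relative was among them. Both results follow from the choice, which used these same libraries, and neither is support for a link to *Fhl1*. In scrambled and knockdown, *Sulf2* had 27, 35, 3 and 3 reads and *Gpx3* had 59, 54, 9 and 7. For *Htr1b* the reads were 25, 40, 4 and 6. *Sulf2*, *Gpx3* and *Htr1b* passed the filter on low counts only through their scrambled libraries.

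The targets of the 3 shRNAs are shown to set them against the transcripts of the LIM genes.
shRNA 1: attgacggagtagtggaagct
shRNA 2: ctactccataaccacggatgt
shRNA 3: atggtctatggcttggatcaa
Each of the 21-base targets matched *Hnrnpl* in full. The longest exact match to a transcript of a listed gene was 9 bases, held by *Fhl1*, *Fhl2*, *Pdlim5* and *Pdlim7*, and a match of 9 bases was found in 45.3% of 8663 tested genes. hnRNP L binds RNA rich in CA. The longest run of CA repeats in a listed transcript was 3 repeats in *Fhl1*, 2 in *Csrp1*, 24 in *Pdlim1* and 5 in *Fhl2* and *Pdlim7*. A run of 4 or more was in 4 of the 10 genes and in 38.7% of the tested genes. Only unbroken repeats in spliced transcripts were searched. Introns and broken CA-rich clusters were not, so a short run does not show that binding sites are absent.

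Exons of *Fhl2* overlap genes on the other strand over 925 bases, those of *Pdlim1* over 209 bases, and those of *Pdlim7* a microRNA gene on the same strand over 68 bases. The other 7 genes overlap none. Over 425 bases *Fhl2* is 100% identical to *AI597479*, a gene it overlaps on the other strand, which had 90 reads in all. Whether reads of *AI597479* were counted to *Fhl2* cannot be told, because the strand setting is not given. The nearest copy of *Fhl1* is *Fhl4*, with 78.1% identity over 731 bases and 7 reads in all. *Csrp1* and *Csrp2* share 77.6% identity over 170 bases. A pseudogene of *Pdlim1*, *Gm5864*, is 94.4% identical over 339 bases and had 7 reads in all. *Pdlim2* holds short stretches like those of genes with many reads, such as *Psmb2* (90.8% over 163 bases, 2152 reads) and *Pphln1* (91.2% over 170 bases, 585 reads).

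**Figure D4:**
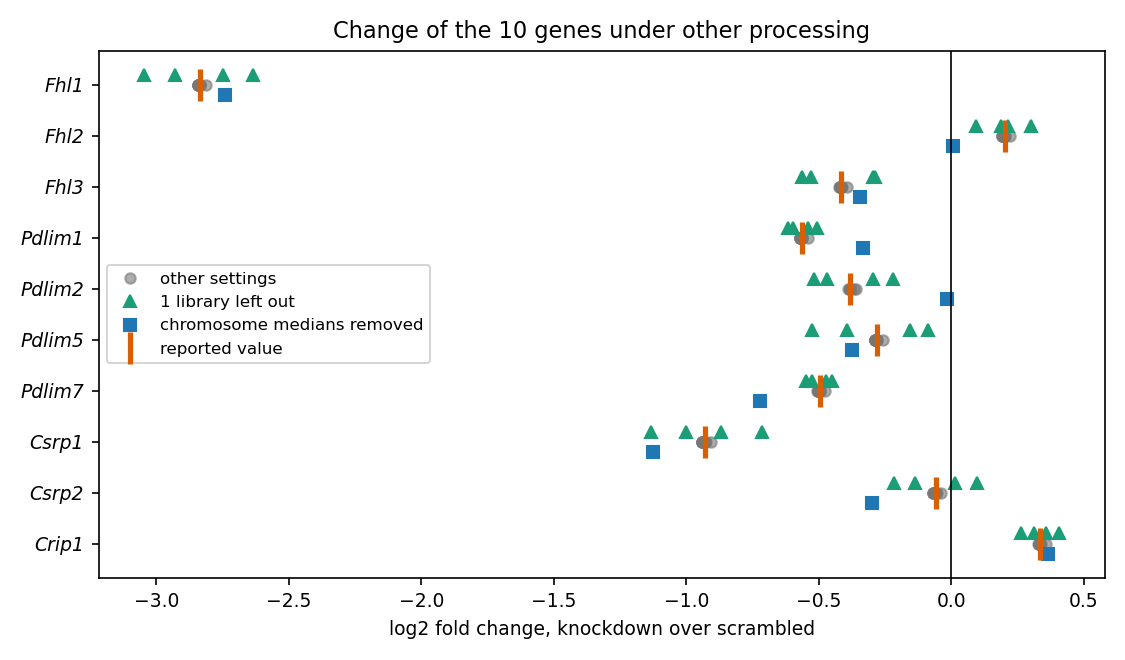
Log2 fold change of each gene under the reported setting (orange) and 16 alternatives: 1 library left out (triangles), chromosome medians removed (squares) and other settings (gray). *Fhl1* and *Csrp1* stay below -0.5 throughout, and *Csrp2* lies on both sides of 0.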

How the data were processed

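Direct RNA reads of 2 scrambled and 2 *Hnrnpl* knockdown libraries were mapped by the authors to GRCm39 with minimap2 2.17, and the deposited files hold whole counts per gene from HTSeq 0.9.1. The annotation release and strand setting are not given in the sources used here. Reads not assigned to a gene were kept out of library sizes. Of the gene IDs, 56017 were named from GENCODE vM39.

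Groups were compared in edgeR 4.0.16 (R 4.3.3) by the quasi-likelihood test with TMM and filterByExpr, and p-values were adjusted over all tested genes. Normalized counts are scaled to the mean library size. Alternatives were 4 DESeq2 1.42.0 configurations, other factors and filters, the robust test, a replicate block, mitochondrial genes and *Rn18s* left out, each library left out, and chromosome medians removed.

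The labels give each replicate number as a batch. The correlation of the deviations of the replicate 1 libraries between groups was -0.01 over 5103 genes that reached 30 counts in each library.

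The genes and lists were chosen with earlier results of these data known. Named are the 10 genes and *Hnrnpl*, relatives with counts, and the 5 genes most like *Fhl1*. Of each other list but that of differentiated muscle, the called genes are named, or that with the smallest adjusted p. Named outside this rule are *Rbpj*, picked as the partner of KyoT2, the uncalled myoblast markers, and overlapping or similar genes.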

Additional observations from a re-analysis of the deposited data

How the results depend on the processing

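With 2 libraries per group, precision is limited by the number of libraries and by the depth of the weaker genes. The number of genes called was 481 in the reported setting, 228 and 115 in the DESeq2 Wald test with local and parametric fit, 222 and 112 in the likelihood ratio test, 285 with chromosome medians removed, and 194 to 433 with 1 library left out, the lowest without knockdown 1. With the replicate block, which pairs the libraries by batch, it was 484, and no call of a listed gene changed. *Hnrnpl* kept its direction and lost its call with both DESeq2 parametric fits (-0.78, adjusted p = 0.0567 and 0.0670). Without 1 library it ranged from -1.03 to -0.48.

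Of the listed genes, *Fhl1* and *Csrp1* were called in all 16 alternatives. *Pdlim1* lost its call in 6 of them, both DESeq2 parametric fits included, and *Pdlim7* gained one with at least 10 counts in every library and with chromosome medians removed. None was called higher in any. *Csrp2*, which was not called, ranged from -0.22 to 0.10 with 1 library left out and was above 0 without scrambled 1 (0.10) and without knockdown 1 (0.01). Among the other genes that were not called, the value without 1 library ranged from 0.09 to 0.30 for *Fhl2* and -0.56 to -0.29 for *Fhl3*. It ranged from -0.52 to -0.22 for *Pdlim2*, -0.53 to -0.09 for *Pdlim5* and -0.55 to -0.45 for *Pdlim7*. For *Crip1* it ranged from 0.26 to 0.41. The causes were not tested.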
